A study of Mus musculus with 24 samples.

Results

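Brca1 mutant and wild-type mice were compared at the stage coded dp18, late in pregnancy, with 3 expression arrays of each genotype. These 6 arrays were taken by their labels from 24 arrays that cover both genotypes at 4 stages, coded V, dp12, dp18 and Lac10. The dp and Lac codes were taken to mean days of pregnancy and of lactation, although the design text gives the same numbers as months. Both dp18 groups are labelled as mice of mixed FVB, 129SVEV and Black Swiss background, in shares of 80%, 10% and 10%. Wild-type replicate 2 is titled with a body weight of 40 g and a white coat, replicate 3 with 50 g and a brown coat, and mutant replicates 2 and 3 with 48 g and a white coat. Neither replicate 1 has a weight or coat in its title. Animal ages, the tissue, the Brca1 allele, its promoter or Cre driver and any pooling of animals are not given in the sources used here. No treatment that separates the groups is named. Mutant titles carry animal numbers and no replicate numbers, so mutant arrays are numbered in accession order. The 3 mutant dp18 titles carry different animal numbers, and wild-type replicates 2 and 3 differ in weight and coat. Nothing says that wild-type replicate 1 came from a separate animal. The p-values measure only the spread between arrays within groups, pooled over all 24 arrays, part of which may be technical.

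BRCA1 is a tumour suppressor that protects stalled replication forks and directs broken DNA to repair by homologous recombination. In late pregnancy the mammary gland is filled by alveoli, whose luminal cells divide, begin to make milk proteins and are held in check by progesterone until birth. Immune cells, vessels, fat and fibroblasts share the gland, and their RNA is measured together with that of the epithelium in a whole tissue sample. The series title places BRCA1 between oestrogen signalling, the firing of replication forks and faulty mitosis during pregnancy, so genes of those processes are given beside the wider comparison.

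All 6 arrays carried high levels of milk protein and keratin RNA. On the log2 scale used throughout, where a difference of 1 is a change of 2 times, beta-casein (Csn2) lay between 12.89 and 13.17 and the luminal keratin Krt8 between 9.81 and 11.69. Resemblance between arrays did not follow the labels. Wild-type replicate 1 and mutant replicate 1 correlated with each other at a Pearson r of 0.965 over all probe sets, but with the other 4 dp18 arrays at only 0.831 to 0.866. Those other 4 correlated among themselves at 0.956 to 0.983. The deviation of replicate 1 from the mean of replicates 2 and 3 was much the same in both genotypes, with r = 0.863 across the 15234 genes tested, which are not independent replicates. Its median absolute size was 0.72 in wild type and 0.61 in mutant, against 0.13 for the genotype difference.

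Genes of odorant and vomeronasal receptors, which are known from sensory neurons of the nose, moved with this split. Their mean log2 level over 1390 genes was 5.07 on wild-type replicate 1 and 4.92 on mutant replicate 1, and 3.53 to 3.59 on the other 4 dp18 arrays. Outside dp18 it was also raised on mutant Lac10 replicates 1 and 2 (4.27 and 4.97) and on the 3 wild-type V arrays (4.03 to 4.60). The mutant V arrays lay at 3.51 to 3.60, so genotype differences at V and Lac10 include arrays with this trait. With this level of each array as a covariate in the model 0 genes were called, the median standard error was 0.21 in place of 0.30, and differences moved little (Ifit3 0.85 in place of 0.86, Ighm 1.87 in place of 1.90). As 1 array with a high receptor level lies in each dp18 group, the comparisons are also given for each mutant array on its own.

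**Figure D1:**
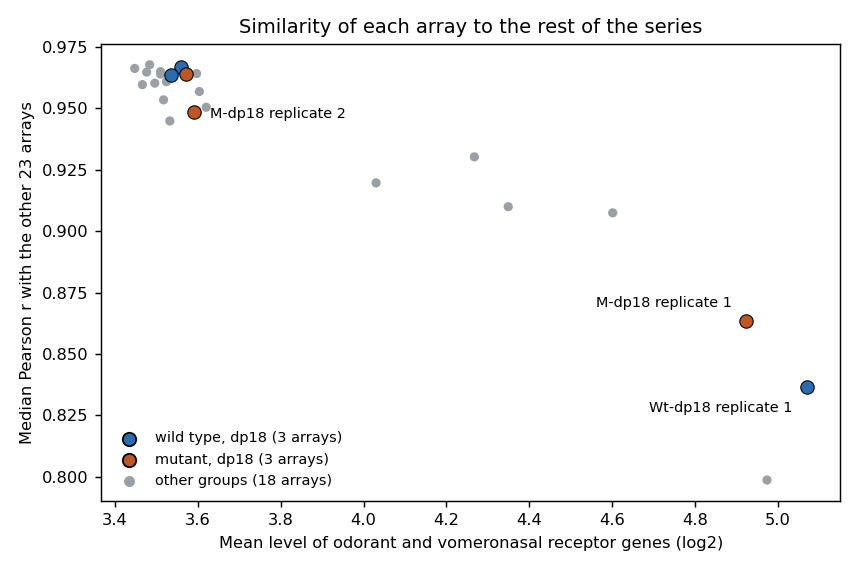
Each of the 24 arrays is plotted by the mean log2 level of 1390 odorant and vomeronasal receptor genes (horizontal axis) and by its median Pearson correlation with the other 23 arrays (vertical axis). Wild-type replicate 1 (0.837) and mutant replicate 1 (0.863) of dp18 lie far to the lower right, as does mutant Lac10 replicate 2 (0.799). The other 4 dp18 arrays lie at the upper left with most of the series. The 3 wild-type V arrays and mutant Lac10 replicate 1 lie in between, at levels of 4.03 to 4.60.

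Brca1 itself did not separate the groups. Its log2 level was 5.37, 5.41 and 5.70 on the wild-type arrays and 5.33, 5.63 and 5.97 on the mutant arrays. The groups overlapped, and the difference was 0.15 (SE 0.31, n = 3 against 3, limma adjusted p = 1.00). The exons that the probe set reads and those that the allele lacks are not given in the sources used here, so this level does not check the labels.

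The gene that followed the genotype labels through most of the series was nonagouti (a, chromosome 2), which encodes agouti signalling protein, a secreted antagonist of the melanocortin receptor that sets coat colour. At dp18 its log2 level was 4.76, 4.76 and 4.95 on the wild-type arrays and 8.61, 4.96 and 8.95 on the mutant arrays. Mutant replicates 1 and 3 were high and the array labelled mutant replicate 2 sat at the wild-type level. Outside dp18 replicate 2 and wild-type Lac10 replicate 1 (9.18), the 11 other mutant arrays of the series lay between 6.54 and 8.95 and the 11 other wild-type arrays between 4.76 and 5.19. With all arrays the dp18 difference was 2.68 (SE 0.90, unadjusted p = 0.0073, limma adjusted p = 1.00). Without those 2 arrays it was 3.95 (SE 0.42, limma adjusted p = 0.00025), a value given as a description because the arrays were left out for their level of this same gene. The label of mutant replicate 2 was kept, and the values it moves most are also given without it.

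**Figure D2:**
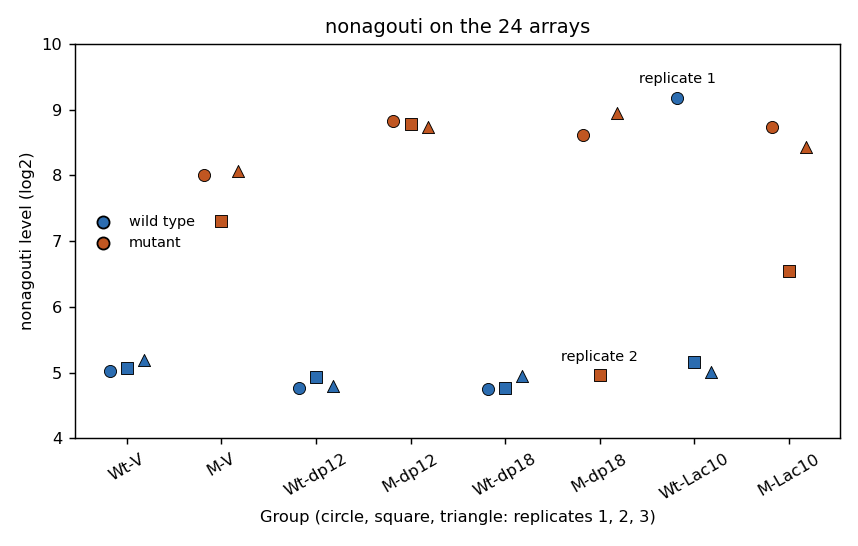
The log2 level of nonagouti is plotted for each of the 24 arrays by group, with wild type in blue and mutant in orange and 1 symbol per replicate number. The array labelled M-dp18 replicate 2 lies at 4.96 among the wild-type arrays, and the one labelled Wt-Lac10 replicate 1 lies at 9.18 among the mutant arrays.

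The array labelled mutant replicate 2 also differed from the other 5 in its makeup. Over the 15234 genes its closest array was mutant Lac10 replicate 3 (r = 0.957), ahead of wild-type Lac10 replicate 2 (0.927). Mutant replicate 3 was closest to wild-type Lac10 replicate 1 (0.983) and mutant dp12 replicate 1 (0.981). The basis of these likenesses was not tested.

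No gene passed the test between genotypes at dp18. With limma and Benjamini-Hochberg adjustment over 15234 genes, 0 were called (0.0%), and the smallest adjusted p was 1.00. At an unadjusted p under 0.05 there were 100 genes (0.656%). On all 3 mutant arrays 193 genes (1.27%) lay above all 3 wild-type arrays, and 163 genes (1.07%) lay below them. Over all genes the median difference was 0.01, and 51.2% of genes had a difference above 0. The median standard error was 0.30, and 71 genes differed by more than 1. With the 6 dp18 arrays fitted alone the median standard error was 0.37, and 0 genes were called. The groups below are therefore described by their counts and medians, with no member past the test in either direction.

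Genes induced by interferon were higher in mutant arrays as a group. Interferons are cytokines released in response to viruses and cell damage, and they act through cell surface receptors that switch on antiviral genes. Of 29 listed genes 23 were tested, and all 23 had a difference above 0, with a median of 0.53 against 0.01 for all genes and a range from 0.10 to 1.10. The mutant arrays were higher without overlap for 3 of the 23 (Ifit1, Ifit3 and Cmpk2), as for 1.27% of all genes.

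Ifit3, an antiviral protein that binds other members of its family, had log2 levels of 6.78, 6.75 and 6.99 on the wild-type arrays and 7.70, 7.63 and 7.77 on the mutant arrays. Each group was tight, and every mutant array exceeded every wild-type array. The difference was 0.86 (SE 0.27, unadjusted p = 0.0048, limma adjusted p = 1.00). Ifit3 has a near-identical neighbour, Ifit3b, so its signal may be shared between both. Ifit1, which binds viral RNA lacking a proper cap, ran from 5.83, 6.12 and 6.39 in wild type to 6.51, 7.55 and 7.38 in mutant, where replicate 1 was the lowest. The difference was 1.04 (SE 0.47, unadjusted p = 0.038, limma adjusted p = 1.00). Cmpk2, a mitochondrial nucleotide kinase, read 8.01, 8.05 and 8.07 against 8.26, 9.15 and 8.59.

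Promoters are shown for Ifit1, Ifit3 and Apol9b because all 3 are higher without overlap and carry a motif known from the promoters of interferon-responsive genes. Each line gives 160 bases up to the start site on the plus strand, from RefSeq on GRCm38.p6, with matches in capitals to the motif GAAANNGAAA or its reverse complement.
Ifit1, chr19:34640729-34640888: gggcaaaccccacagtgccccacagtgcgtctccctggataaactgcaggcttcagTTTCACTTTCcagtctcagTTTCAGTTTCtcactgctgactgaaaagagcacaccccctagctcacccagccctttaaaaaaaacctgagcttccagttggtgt
Ifit3, chr19:34583369-34583528: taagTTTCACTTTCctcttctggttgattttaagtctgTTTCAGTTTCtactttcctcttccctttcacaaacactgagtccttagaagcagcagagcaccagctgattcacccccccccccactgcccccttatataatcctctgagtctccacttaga
Apol9b, chr15:77728912-77729071: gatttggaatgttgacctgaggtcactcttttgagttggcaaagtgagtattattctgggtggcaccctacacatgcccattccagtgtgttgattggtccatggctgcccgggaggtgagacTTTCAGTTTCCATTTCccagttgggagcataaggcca

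The matches begin 104 and 85 bases before the start site in Ifit1, 156 and 122 in Ifit3, and 37 and 31 in Apol9b, where they overlap. In the 250 bases before the start, on either strand, the motif was present in 3.46% of 27025 genes of the promoter table and in 3.24% of the 11867 tested genes that have an entry. It was present in 7 of the 17 interferon-stimulated genes with an entry (41.2%): Bst2, Gbp3, Ifit1, Ifit3, Oas3, Rsad2 and Stat2. Cmpk2, which was also higher without overlap, had an entry but no match. The motif was found in 1 of 15 luminal epithelial genes (6.67%), 0 of 12 lymphocyte genes, 0 of 12 endothelial genes and 0 of 15 casein and whey genes. A match describes the sequence and does not show that a factor was bound.

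The interferon genes were not equally high on the 3 mutant arrays. Mutant replicate 1 minus wild-type replicate 1, which resemble each other, gave a median of 0.28 with 16 of 23 above 0. The array labelled mutant replicate 2 minus the mean of wild-type replicates 2 and 3 gave 0.70 with 22 of 23, and mutant replicate 3 gave 0.73 with 23 of 23. Mutant replicates 1 and 3, whose nonagouti levels match their labels, thus gave the lowest and the highest of these medians. Over all genes the same comparisons for mutant replicates 1, 2 and 3 gave medians of 0.04, -0.0084 and -0.0035. The shares of all genes above 0 were 55.9%, 49.1% and 49.4%, against 69.6%, 95.7% and 100% of the interferon genes. Usp18, a protease that limits interferon signalling, stood at 6.24, 6.17 and 6.55 in wild type and 6.52, 7.88 and 7.85 in mutant. Gbp3, an interferon-induced GTPase, stood at 5.23, 5.80 and 6.17 against 5.62, 7.13 and 7.58. Mutant replicate 1 overlapped the wild-type arrays for both, and their differences of 1.10 (SE 0.58) and 1.04 (SE 0.51) did not pass. The list median ranged from 0.24 without mutant replicate 3 to 0.92 without mutant replicate 1, and was above 0 in all 25 settings examined. Several settings leave dp18 differences as they are, and others leave out the same dp18 arrays, so the 25 are not separate checks. The list median was 0.38 without replicate 2 and 0.30 without wild-type replicate 1. At the other stages the same median was 0.28 at V, 0.15 at dp12 and 0.00 at Lac10, where the medians of all genes were 0.20, 0.00 and -0.19.

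**Figure D3:**
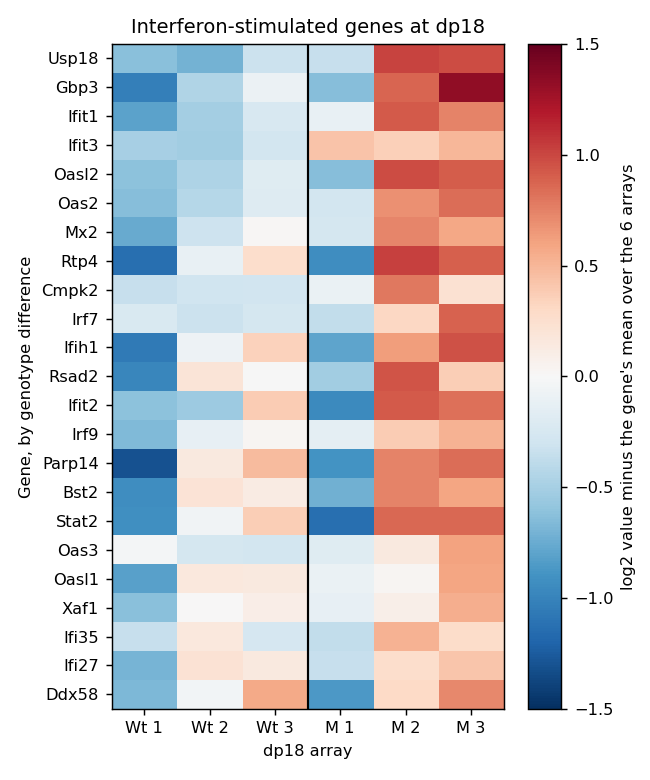
The 23 interferon-stimulated genes (rows, ordered by genotype difference) are coloured by log2 value minus the gene's mean over the 6 dp18 arrays (columns). Mutant replicates 2 and 3 are above the mean for nearly all genes, and mutant replicate 1 is below it for most, with Ifit3 above.

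Genes of lymphocytes were also higher in mutant arrays, and the array labelled replicate 2 led them. All 20 tested members of the T and B lymphocyte list, of 29 listed, had a difference above 0, with a median of 0.81 and a range from 0.32 to 1.41. The mutant arrays were higher without overlap for 5 of the 20 (Cd22, Cd5, Cd79a, Fcer2a and Ms4a1), as for 1.27% of all genes. All but Cd5 are best known from B cells. Ms4a1, which encodes the B cell surface protein CD20, was at 5.19, 4.36 and 5.29 in wild type and 6.00, 7.67 and 5.40 in mutant. Cd79a, a signalling chain of the B cell receptor, was at 5.34, 4.69 and 5.22 against 5.87, 7.29 and 5.83. In both, replicate 2 stood well above its group, and replicate 3 lay barely above wild type for Ms4a1 and level with mutant replicate 1 for Cd79a. The differences of 1.41 (SE 0.74) and 1.25 (SE 0.77) did not pass, and were 0.75 and 0.77 without replicate 2.

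Ighm, the heavy chain of immunoglobulin M, read 7.03, 8.76 and 9.59 in wild type and 9.67, 11.10 and 10.30 in mutant, so the groups just failed to overlap. The difference was 1.90 (SE 0.73, unadjusted p = 0.017, limma adjusted p = 1.00), but 1.18 without wild-type replicate 1 and 1.03 as the mean of its 7 probe sets. In T cells, the co-receptor gene Cd8a stood at 5.09, 5.06 and 5.54 against 5.35, 6.66 and 6.56, and Cd3g, part of the T cell receptor complex, at 5.28, 5.72 and 7.32 against 5.59, 8.29 and 8.06. Mutant replicates 2 and 3 were both high for these T cell genes, whereas Ms4a1 and Cd79a stood out on replicate 2.

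The lymphocyte median was 0.31 for mutant replicate 1 against wild-type replicate 1, with 17 of 20 above 0 (85.0%, against 55.9% of all genes). It was 1.37 for replicate 2 and 0.52 for replicate 3 against wild-type replicates 2 and 3, with 20 and 19 of 20 above 0. Over the 25 settings it ran from 0.49 to 1.12, and it was 0.50 without the array labelled replicate 2. In a whole tissue sample, more cells of a type and more RNA per cell cannot be told apart. The median was 0.25 at V, 0.07 at dp12 and 0.51 at Lac10, against the medians of all genes given above.

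Myeloid genes had smaller differences of the same sign. In the macrophage and neutrophil list 21 of 22 tested members had a difference above 0, with a median of 0.41. Cxcr2, Fcgr1 and Ngp were higher without overlap, as were 1.27% of all genes. Fcgr1, a high-affinity antibody receptor of macrophages, was at 5.04, 5.12 and 5.11 in wild type and 5.13, 6.64 and 5.67 in mutant. Csf1r, the receptor on which macrophages depend, was at 5.39, 6.98 and 7.13 against 5.32, 8.70 and 7.33. The groups overlapped for Csf1r, and the list median was 0.80 on replicate 2 but 0.21 on replicate 1 and 0.20 on replicate 3. Without the array labelled replicate 2 the list median was 0.06, without wild-type replicate 1 it was 0.13, and without mutant replicate 1 it was 0.76. Plasma cell genes had a median of 0.27 with 6 of 9 above 0, mast cell genes 0.17 with 4 of 7, and erythroid and platelet genes 0.15 with 3 of 5.

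**Figure D4:**
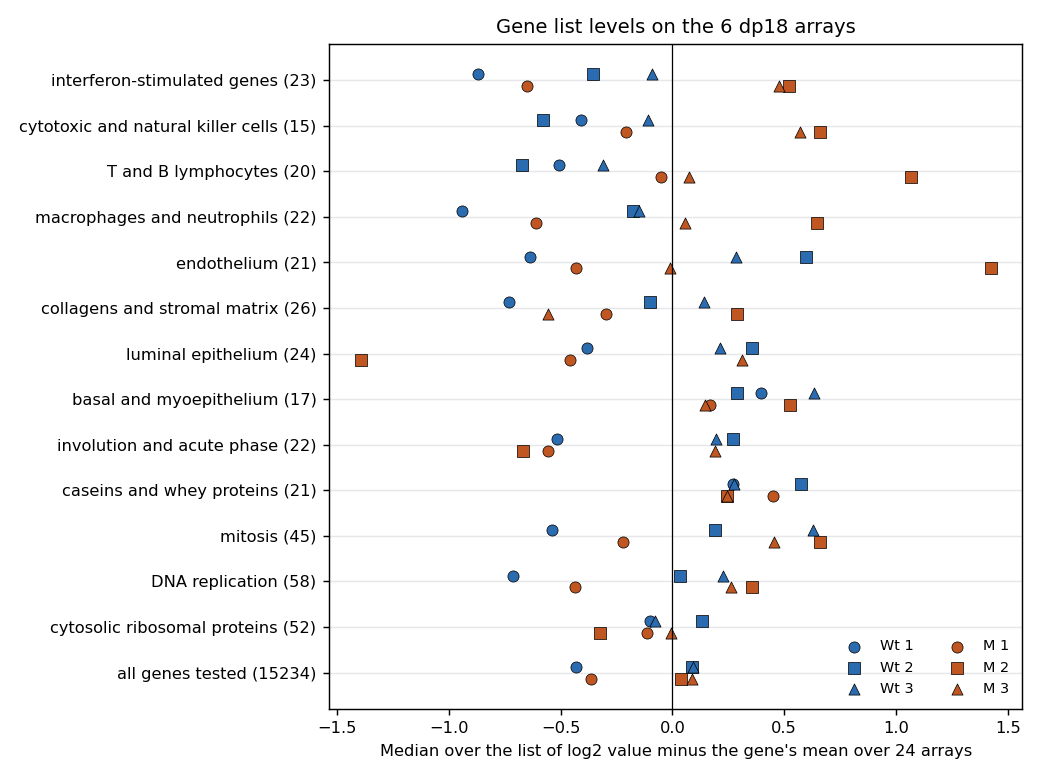
For each gene list (number of genes tested in brackets) the median over its genes of the log2 value minus the gene's mean over all 24 arrays is plotted for the 6 dp18 arrays. The array labelled M replicate 2 is lowest for luminal epithelium (-1.39) and highest for endothelium (1.42) and lymphocytes (1.07), and both replicates 1 are low for most lists.

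Luminal epithelial genes had a median of -0.62, with 22 of 24 below 0, and the array labelled mutant replicate 2 was far below the others. The list level was -0.38, 0.36 and 0.21 on the wild-type arrays and -0.46, -1.39 and 0.31 on the mutant arrays. Against the wild-type arrays most like them, the median difference was -0.19 for mutant replicate 1, -1.67 for the array labelled replicate 2 and 0.09 for replicate 3. Without the array labelled replicate 2 the list median was -0.16, and over the 25 settings it ran from -0.98 to 0.09.

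The tight junction gene Cldn4 shows the pattern, at 10.09, 10.91 and 10.30 in wild type and 9.37, 6.88 and 11.13 in mutant. Cdh1, which encodes the adhesion protein E-cadherin, was at 9.76, 10.53 and 10.59 against 9.18, 7.84 and 10.71. Krt18, the partner of keratin 8, was at 10.88, 11.30 and 11.05 against 10.51, 8.27 and 11.41. For each of these 3 genes mutant replicate 3 was the highest of the 6 arrays and replicate 2 the lowest, so the groups overlapped. The differences were -1.31 (SE 1.01), -1.05 (SE 0.72) and -1.02 (SE 0.82).

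Endothelial genes ran opposite to the luminal ones on the same array. The list median was 0.30 with 16 of 21 above 0, made up of 0.25 for mutant replicate 1, 0.98 for replicate 2 and -0.47 for replicate 3. Without the array labelled replicate 2 the endothelial median was -0.29, and without wild-type replicate 1 it was -0.10. Kdr, the main receptor for vascular endothelial growth factor, was at 8.05, 9.70 and 9.55 in wild type and 8.88, 11.34 and 9.22 in mutant. Tek, the receptor for angiopoietins, was at 7.04, 8.29 and 8.47 against 7.48, 10.07 and 7.82. Collagen and matrix genes had a median of 0.06, with 0.35, 0.29 and -0.59 for the 3 mutant arrays, and 0 of 26 were above 0 on replicate 3. Mutant replicates 2 and 3 thus lay on opposite sides of the mean of wild-type replicates 2 and 3 for both stromal lists, and wild-type replicate 1 was lower than mutant replicate 3 for both.

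Acute phase and involution genes had a median of -0.38 with 21 of 22 below 0, again with the lowest values on replicate 2. Saa3, a secreted acute phase protein, was at 5.27, 9.62 and 7.66 in wild type and 6.01, 4.94 and 7.34 in mutant. The medians were -0.04, -0.89 and -0.11 for the 3 mutant arrays, and -0.23 over the list without replicate 2. Wild-type replicate 1 was also low for Saa3, and the difference of -1.42 had a standard error of 1.16.

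**Figure D5:**
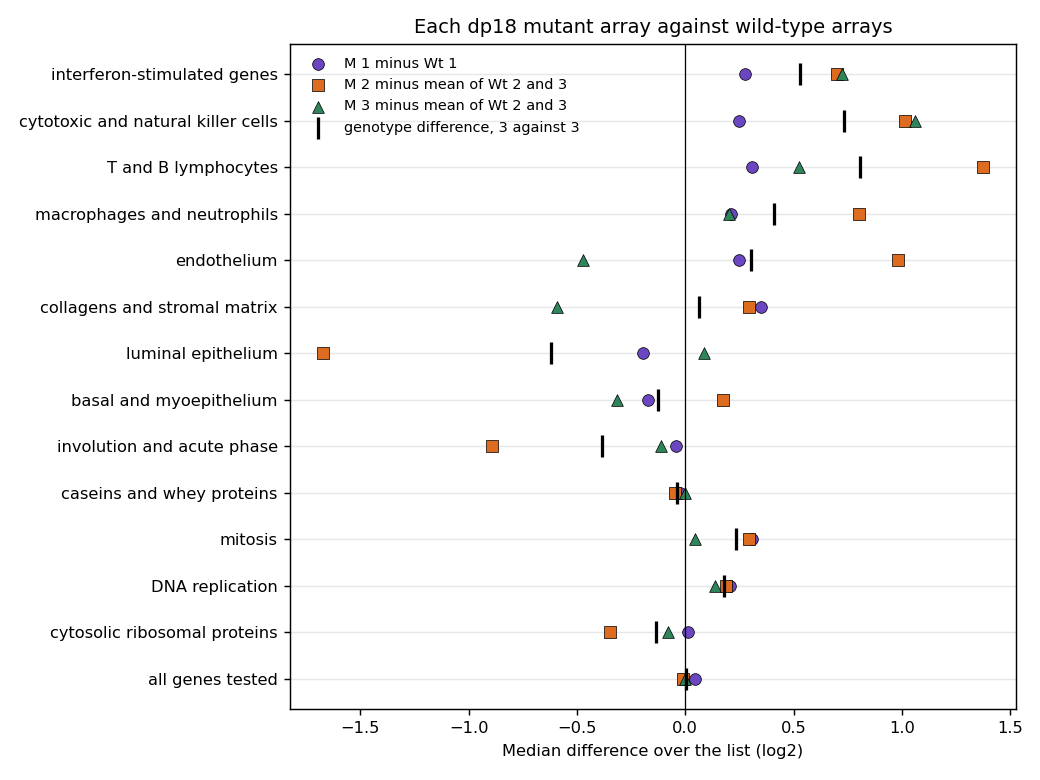
Median log2 differences over each list are plotted for mutant replicate 1 minus wild-type replicate 1, for mutant replicates 2 and 3 each minus the mean of wild-type replicates 2 and 3, and for the full comparison of 3 against 3 arrays (black bar). The interferon, cytotoxic, lymphocyte, myeloid, mitosis and DNA replication lists lie above 0 for all 3 mutant arrays. Endothelium, collagens, luminal epithelium, basal and myoepithelium and ribosomal proteins change side between arrays. The cytotoxic list was written after values were seen.

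Basal and myoepithelial genes had a median of -0.12 with 12 of 17 below 0, and 4 were lower without overlap (Krt14, Lgr5, Mylk and Trp63), as were 1.07% of all genes. The list changed side between arrays, with medians of -0.17, 0.18 and -0.32 for mutant replicates 1, 2 and 3. On the array labelled replicate 2, 10 of 17 were above 0. Krt14, a keratin of basal cells, was at 9.17, 9.42 and 9.56 in wild type and 8.83, 8.49 and 9.08 in mutant. Lgr5, a receptor that marks stem-like cells in several epithelia, was at 5.40, 5.60 and 6.97 against 5.35, 5.13 and 5.14, so its difference of -0.78 (SE 0.37, unadjusted p = 0.048, limma adjusted p = 1.00) leans on wild-type replicate 3, and its other probe set has the opposite sign. The contractile genes Acta2 and Myh11 did not follow, with differences of -0.05 (SE 0.19) and 0.15 (SE 0.31). In the hormone-sensing luminal list 8 of 10 were below 0, with a median of -0.22, and Prom1 was lower without overlap, at 5.11, 5.07 and 5.48 against 4.90, 4.82 and 4.59.

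Most milk genes differed little between the genotypes at dp18. Over 21 casein and whey genes the median was -0.04 with 9 above 0, and the 3 mutant arrays gave -0.02, -0.05 and 0.00. Csn2 was at 13.17, 12.91 and 12.94 in wild type and 13.11, 12.89 and 12.91 in mutant, a difference of -0.04 (SE 0.40). These levels are close to the highest value on each dp18 array (13.30 to 13.42), which limits what Csn2 can show. Wap, the main whey protein of mouse milk, was at 10.91, 11.46 and 10.99 against 10.65, 11.24 and 10.86, a difference of -0.20 (SE 0.58).

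Some milk genes differed by more than 1. Csn1s2b, a further casein, was at 5.87, 7.89 and 5.20 in wild type and 6.30, 10.37 and 5.93 in mutant, where replicate 2 was far the highest. The groups overlapped, and the difference was 1.21 (SE 1.13). Wfdc18, a whey acidic protein family member, was the only one of the 21 lower without overlap, as were 1.07% of all genes. It was at 10.91, 11.13 and 11.00 in wild type and 10.31, 8.90 and 10.60 in mutant, and its difference of -1.08 (SE 0.49) did not pass and was -0.56 without the array labelled replicate 2. Among 19 milk transporters the median was -0.14 with 7 above 0. Slc34a2, a sodium-dependent phosphate transporter, was higher without overlap, at 8.52, 8.21 and 7.68 against 9.07, 10.39 and 8.94, a difference of 1.33 (SE 0.78), or 0.87 without the array labelled replicate 2. Lipid synthesis genes had a median of 0.09 with 27 of 36 above 0. At Lac10 the corresponding medians were -0.93 for caseins and whey, -1.04 for transporters and -1.35 for lipid synthesis, against -0.19 for all genes. Mutant Lac10 replicate 2 had a median correlation of only 0.799 with the other arrays. Wild-type Lac10 replicate 1 has a nonagouti level against its label. Odorant and vomeronasal receptor levels were 4.27, 4.97 and 3.53 on the mutant Lac10 arrays and 3.48 to 3.62 on the wild-type ones. How far these arrays set the Lac10 medians was not tested.

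Cell cycle genes were slightly higher in mutant arrays. For mitosis 41 of 45 genes were above 0 with a median of 0.23, and for DNA replication 52 of 58 with a median of 0.18. Without overlap there were 0 mitosis genes and 1 replication gene, Mcm10, which is near the background of 1.27%. Mcm10, which helps to switch on the replicative helicase, was at 5.75, 5.86 and 5.73 in wild type and 5.93, 5.91 and 5.91 in mutant, a difference of 0.14 (SE 0.21). The mitosis medians were 0.31, 0.29 and 0.04 for the 3 mutant arrays, and those of replication 0.21, 0.19 and 0.14. Both medians were highest without mutant replicate 1 (0.50 and 0.45) and were below 0 without wild-type replicate 1 (-0.08 and -0.07). With each array centred on housekeeping genes they were 0.11 and 0.06, and the mitosis median was -0.02 without the array labelled replicate 2.

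Mcm2, Wee1 and Cdkn1a, which were named whatever their values, gave no separation. Mcm2, a subunit of the replicative helicase, was at 5.86, 7.24 and 6.96 in wild type and 5.84, 7.40 and 7.13 in mutant. The replicate 1 arrays were low in both genotypes, and the difference was 0.11 (SE 0.46). Wee1, the kinase that restrains entry into mitosis, was at 8.43, 9.17 and 9.35 against 7.46, 7.93 and 9.76. Mutant replicates 1 and 2 were lower than wild type and replicate 3 higher, and the difference was -0.60 (SE 0.62). Cdkn1a, the p53-induced kinase inhibitor p21, differed by -0.01 (SE 0.35), and 24 p53 targets had a median of -0.02 with 10 above 0.

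The oestrogen receptor gene Esr1 was at 6.41, 6.46 and 6.43 in wild type and 6.53, 6.90 and 5.99 in mutant, a difference of 0.04 (SE 0.41). Its wild-type values were tight and the mutant values lay on both sides of them. The progesterone receptor gene Pgr was at 5.18, 5.31 and 5.38 against 5.61, 5.03 and 4.58, a difference of -0.21 (SE 0.31). Among 26 oestrogen-responsive genes the median was -0.05 with 10 above 0. Tff1 alone was higher without overlap, as were 1.27% of all genes. Tff1, a classic oestrogen target in breast cancer cells, was at 5.63, 5.71 and 5.67 against 6.55, 5.82 and 5.75, so only mutant replicate 1 was clearly higher. The signs for Brca1, Esr1, Pgr, Wee1, Mcm2 and Cdkn1a each turned in at least 1 of the settings examined.

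Repair genes that act with BRCA1 had small differences. In the recombination and Fanconi list 24 of 34 were above 0 with a median of 0.07. Brip1 and Fancl were higher without overlap, as were 1.27% of all genes. Brip1, a helicase that binds BRCA1 directly, was at 5.24, 5.15 and 5.48 in wild type and 5.52, 5.74 and 5.71 in mutant. Fancl, the ubiquitin ligase of the Fanconi core complex, was at 5.71, 5.85 and 6.00 against 6.14, 6.17 and 6.08. Their differences were 0.37 (SE 0.24) and 0.28 (SE 0.18), and 24 of 34 above 0 (70.6%) compares with 51.2% of all genes.

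Ribosomal protein genes leaned the other way. Of 52 cytosolic ribosomal protein genes 44 were below 0, with a median of -0.14. Without overlap 4 were lower (Rpl10a, Rpl34, Rpl35 and Rpl9), as were 1.07% of all genes. Rpl9 was at 9.11, 9.29 and 8.90 in wild type and 8.84, 8.34 and 8.77 in mutant, and Rps16 ran the other way at 5.52, 5.54 and 5.48 against 5.78, 5.88 and 6.02. These genes have many near-identical pseudogene copies, so their probe sets are uncertain. The medians were 0.01, -0.35 and -0.08 for the 3 mutant arrays. Immediate early genes are switched on within minutes of a stimulus, and many encode transcription factors. They were below 0 for 19 of 21, with a median of -0.17. The 3 mutant arrays gave -0.27, -0.25 and -0.02, with 9 of 21 above 0 on replicate 3. Nr4a1, an orphan nuclear receptor, was at 11.52, 11.17 and 11.28 against 10.89, 10.47 and 10.98, and the zinc finger factor Egr2 was at 7.41, 7.48 and 7.66 against 6.81, 7.40 and 7.26.

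Oxidative phosphorylation (45 genes), secretion and unfolded protein response (30), white adipocyte (17), brown adipocyte (7), skeletal muscle (15), keratinocyte (10), peripheral nerve (8), melanocyte (5) and housekeeping (23) genes had medians between -0.14 and 0.02. Within that range, all 5 melanocyte genes were below 0, and the secretion list was -0.32 with 3 of 30 above 0 on the array labelled replicate 2, against 0.09 on both other mutant arrays. Circadian clock genes had a median of -0.23 with 10 of 16 below 0. Bhlhe41, a repressor in the clock, was at 8.02, 9.02 and 9.30 in wild type and 7.34, 7.06 and 8.43 in mutant, with replicate 3 inside the wild-type range.

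Outside these lists, the genes of smallest unadjusted p without overlap were led by Sstr5. This somatostatin receptor gene was at 5.44, 5.53 and 5.15 in wild type and 6.07, 5.92 and 5.99 in mutant, a difference of 0.62 (SE 0.18, unadjusted p = 0.0030, limma adjusted p = 1.00). Apol9b, an apolipoprotein L gene whose promoter is shown above, was at 4.45, 4.53 and 4.45 against 5.00, 5.13 and 5.01, a difference of 0.57 (SE 0.20). Klrc1, a receptor of natural killer cells, was at 4.49, 4.46 and 4.67 against 5.29, 5.58 and 5.42, a difference of 0.89 (SE 0.33). In these 3 genes the 3 mutant arrays lay close together, and replicate 2 was no exception. The other higher genes were Klhl20 (0.78), Pdcd7 (0.45, or 0.29 without the array labelled replicate 2), and Ccnq (1.13) and Tmem202 (0.88), both of which have a second probe set of opposite sign.

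Among the lower genes, Fut2, a fucosyltransferase that builds blood group sugars on mucosal secretions, was at 5.12, 5.73 and 5.57 in wild type and 5.04, 4.31 and 4.82 in mutant. Its difference was -0.75 (SE 0.23, unadjusted p = 0.0035, limma adjusted p = 1.00). Rnase1, a secreted pancreatic-type ribonuclease, was at 5.69, 6.47 and 6.70 against 5.65, 4.74 and 5.42, a difference of -1.02 (SE 0.36). For both genes mutant replicate 1 lay only just below wild-type replicate 1. H2-Q10, a secreted class I histocompatibility gene, was at 7.99, 8.93 and 8.46 against 6.72, 7.20 and 7.25, a difference of -1.40 (SE 0.55). Its family members are near-identical and its second probe set has the opposite sign, so it is uncertain.

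The other lower genes were Prss48 (-0.72), Gm19600 (-0.90), 3000002C10Rik (-0.70), Pknox2 (-0.51), Nat8f1 (-0.74), 2610042L04Rik (-0.69) and the taste receptor gene Tas2r135 (-0.66). Several of these 20 genes have low log2 levels, close to or below the median of all probe sets on the arrays (5.31 to 5.62), where signal over background limits what can be read. All 20 genes were chosen for their small p and lack of overlap, so these values are a description.

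The genotype difference at dp18 was set against that at dp12 and at Lac10 in the same model. Neither test called a gene, with 0 of 15234 in each and 63 and 954 genes at an unadjusted p under 0.05. Against dp12 the smallest p belonged to Fndc1, whose genotype difference was 0.53 at dp18 and -1.30 at dp12 (difference 1.83, SE 0.54, limma adjusted p = 1.00). Dhrs9, a retinol dehydrogenase, differed by 0.06 at dp18 and -1.63 at dp12, and Pex11a, a peroxisome division factor, by -0.45 and 0.78. Fam171b differed by 0.25 and -0.87, and Mir139 by -0.22 and 0.75.

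Against Lac10 the values were larger. Drd4, a dopamine receptor gene, had a genotype difference of 0.38 at dp18 and -3.14 at Lac10 (difference 3.52, SE 0.68, limma adjusted p = 0.65). Fen1, the flap nuclease that finishes lagging strands, differed by 0.68 and -2.36, and Srebf1, a regulator of fatty acid synthesis, by 0.05 and -1.85. Fkbp11, a folding factor of the secretory pathway, differed by 0.41 and -2.22, and Angpt1, a ligand of Tek, by 0.73 and -1.88. One Lac10 array of each genotype stands apart as well, wild-type replicate 1 by its nonagouti level and mutant replicate 2 by its correlation with the other arrays (0.799), and a second probe set of Fen1 has the opposite sign at dp18. Without the 2 arrays that go against the nonagouti label 12 genes were called against Lac10, and with array weights 217.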

How the data were processed

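The authors deposited single-colour array values as log2 expression. The submitters' processing notes name RMA (robust multi-array average) with no version. RMA sets probe intensities of all arrays to a common distribution, so a change shared by most genes may be reduced; medians of the deposited values still ran from 5.31 to 5.62. Per the labels' protocols, Trizol total RNA was labelled as biotin cRNA; a treatment text in the same labels describes an RNA pull-down, which is not settled here. The platform annotation gives 1 gene symbol for 23521 of 41345 probe sets, more than 1 for 1814 and no symbol for 16010. The 22180 genes were represented by their probe set of highest mean, and 15234 were kept where at least 3 arrays lay above the array's median (6946 removed).

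Limma 3.58.1 in R 4.3.3 was fitted on all 24 arrays with 1 mean per group (16 residual and 4.35 prior degrees of freedom), with Benjamini-Hochberg adjustment over all genes tested and a threshold of 0.05. The fit was tested on simulated data. Standard errors come from this fit; n is 3 arrays in each group. For arrays, their number limits the precision. Lists are described by medians and counts, without a test. A list level is the median of log2 value minus the gene's mean over 24 arrays. The pairing of each mutant array with wild-type arrays was chosen after their correlations were seen. Named genes were first the 10 in each direction of smallest unadjusted p without overlap, since none passed the threshold. The members of largest difference in each list and 5 genes for each contrast between stages were added. Brca1, Esr1, Pgr, Wee1, Mcm2, Cdkn1a and nonagouti were named whatever their values. Other members are given as examples of their list. The members and lists were chosen with earlier results of these data known. Promoters came from RefSeq (GRCm38.p6). The 25 settings changed the filter, probe set, centring, variance model, weights, covariates and arrays used. Those that changed only the variance model, the stages fitted or the block for missing body weights leave each dp18 difference as it is. Some others leave out the same dp18 arrays as each other.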

Additional observations from a re-analysis of the deposited data

How the results depend on the processing

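No paired analysis was possible because mutant titles carry no replicate number, so mutant numbers only follow accession order; the block named below marks the 2 dp18 titles without a body weight and pairs no animals. The count of 0 genes at dp18 became 1, nonagouti, in 3 settings: without the 2 arrays against the nonagouti label, with that omission beside a block for the 2 arrays lacking a body weight, and without those 2 and the arrays under 0.9 correlation (5 arrays in all). Against Lac10 the count of 0 became 12, 42 and 1 in these settings and 217 with array weights. Of the values for single genes, 1390 kept their direction and side of the threshold, 36 turned sign and 3 passed. Many of these genes were named for their lack of overlap, so leaving out a dp18 array cannot turn their sign. Settings that change only the variance model or the stages fitted leave each dp18 difference as it is. The count of 1390 therefore does not show that these values were stable. Centring on 23 housekeeping genes moved the median of all genes to -0.12 and turned Esr1 (-0.0776), Mcm2 (-0.0156), Dhrs9 (-0.0595) and Srebf1 (-0.0721). Array weights turned Esr1 (-0.0364), Mcm2 (-0.0744) and Dhrs9 (-0.0233). Without the 2 arrays against the nonagouti label the values were Esr1 -0.17, Mcm2 -0.20, Cdkn1a 0.17 and Dhrs9 -0.33. With the block as well they were Esr1 -0.21, Cdkn1a 0.30 and Dhrs9 -0.16, and without the low-correlation arrays as well Esr1 -0.45, Wee1 0.50, Cdkn1a 0.47, Fndc1 -0.40 and Dhrs9 -0.28. Mir139 was 0.0668 without both replicates 1 and without the arrays under 0.9 correlation. Leaving out each dp18 array in turn gave ranges of -0.0101 to 0.31 for Brca1, -0.17 to 0.29 for Esr1, -0.48 to 0.0357 for Pgr, -0.31 to 0.58 for Mcm2, -0.36 to 0.17 for Cdkn1a, -0.33 to 0.47 for Dhrs9 and -0.0881 to 0.25 for Srebf1. Of the list medians, 847 values moved by less than the spread between replicates and 17 by more. That spread is the pooled standard deviation of list levels within the dp18 groups, and it includes the arrays that stand apart. A median could therefore turn sign and still count as moved by less. The endothelial median did so, running from -0.47 to 0.73 over the 25 settings, so the count does not show that medians were stable. Low signal limits genes near the array medians. The causes were not tested.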

Other observations

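Genes of cytotoxic lymphocytes and natural killer cells were higher in mutant arrays at dp18, in a list written after values were seen. All 15 tested members had a difference above 0, with a median of 0.73, and the medians were 0.25, 1.01 and 1.06 for mutant replicates 1, 2 and 3 against the wild-type arrays most like them. Il2rb, a chain of the interleukin 2 and 15 receptors, was at 5.31, 5.73 and 6.12 in wild type and 5.87, 7.27 and 7.50 in mutant. Nkg7, a cytotoxic granule protein, was at 6.76, 6.46 and 7.43 against 7.29, 8.12 and 8.33. Xcl1, a chemokine of activated killer cells, was at 6.67, 5.54 and 6.56 against 6.83, 7.26 and 7.61, without overlap. Unlike the B cell genes, these were about as high on replicate 3 as on replicate 2, and no member passed limma after Benjamini-Hochberg adjustment. The list median was 0.09 at V, 0.68 at dp12 and -0.06 at Lac10, where the medians of all genes were 0.20, 0.00 and -0.19.

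Class I antigen presentation genes had 13 of 13 differences above 0 with a median of 0.23, led by Psmb9, a subunit of the immunoproteasome, at 6.55, 6.89 and 7.08 against 6.96, 7.95 and 8.58. Their medians were -0.06, 0.27 and 0.43 for the 3 mutant arrays, so replicate 1 did not share in it. Class II genes, which mark B cells and antigen-presenting cells, had 9 of 10 above 0 with a median of 0.58, and the medians were 0.13, 1.05 and 0.16. Both lists were also written after values were seen.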
